A study of Sus scrofa with 27 samples.

Results

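Of the 35670 gene identifiers in the count files, 10 were taken by symbol as markers of the cells that lie outside the granulosa layer of the follicle: the fibrillar collagen chains COL1A1, COL1A2 and COL3A1, the fibril-associated collagen COL14A1, the small proteoglycans DCN, LUM and BGN, the growth factor receptors PDGFRA and PDGFRB, and the smooth muscle actin ACTA2. All 10 were above the count minimum and belonged to the 11384 genes tested. They were measured in mural granulosa cells (GCs), the GCs that line the follicle wall, cut out by laser capture microdissection from the largest healthy follicle of each sow. The 13 full-fed (FF) sows were given 6.5 kg of feed a day and the 14 feed-restricted (RES) sows 3.25 kg, for the last 2 weeks of lactation. All were wild-type first-parity sows of a Large White and Norwegian Landrace cross, all were fed alike after weaning, and tissue was taken on day 2 after weaning. The sows had been picked from a larger trial, RES sows for a high and FF sows for a low loss of body weight, so the groups were chosen in part on an outcome of the diets. There was 1 library per sow, made from total RNA after removal of ribosomal RNA, and unique molecular identifiers were used to remove PCR copies. The comparisons ask how much RNA of follicle wall cells the captured GCs carried, whether it differed between the diets, and whether it followed CYP17A1 from sow to sow.

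The wall of an antral follicle is built in layers. Inside the basement membrane lie the mural GCs, which have no blood vessels. Outside it lies the theca interna, whose steroidogenic cells make androgens with the enzyme CYP17A1, among capillaries wrapped by pericytes, and beyond it the theca externa with fibroblasts and smooth muscle cells. Fibroblasts make the type I and type III collagen that gives the theca its strength, and they carry PDGFRA. PDGFRB is used as a marker of pericytes and ACTA2 of smooth muscle cells, but these genes are not restricted to a single cell type. CYP17A1 is low in GCs of many mammals and serves as a thecal marker. In bulk RNA of this kind, more cells of a type and more RNA of a gene per cell cannot be told apart.

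Libraries of FF sows held between 12299220 and 16021200 counts, with a median of 13490513, and those of RES sows between 12942198 and 18120922, with a median of 15232600. Levels are given as normalized counts, that is counts divided by the size factor of the library. Markers of the captured cells were present in all libraries. The 9 granulosa genes that matched by symbol, among them the inhibin subunits INHA, INHBA and INHBB and the matrix proteoglycan VCAN, summed to 71643 to 122290 in FF and 77178 to 147570 in RES, against 14185 to 43475 and 11642 to 39094 for the 10 wall markers. VCAN alone had 50758 ± 15720 in FF and 56380 ± 10348 in RES, the largest part of that sum. Of the wall markers, COL3A1 (means of 10436 in FF and 8008 in RES) and COL1A2 (8454 and 8019) exceeded INHA, with a mean of 7090.5 over all libraries. They lay below INHBA, with 11969 and 13830. Whether GCs made part of this collagen RNA was not tested. As a share of the library, the wall markers made up 0.0975% to 0.351% in FF sows, with a median of 0.174%, and 0.0872% to 0.294% in RES sows, with a median of 0.159%, so the ranges of the diets overlapped almost entirely. The sample labels name FF sow 9 as the animal left out, whereas the RNA quality list gives the lowest value to FF sow 10, so the quality values of FF sow 10 are uncertain, and results that use them are given without it as well. Replicates are separate sows, each with 1 follicle.

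On a scale per kilobase of exon, the collagen chains COL3A1 and COL1A2 had the highest mean levels of the wall markers, and COL1A1 ranked below ACTA2, DCN and LUM. Exon lengths and overlaps between genes were read from RefSeq models, whereas the counts were made per Ensembl gene. Levels per kilobase are therefore approximate. COL3A1, the chain of type III collagen (chr15:93556914-93595678, plus strand), had 2189 ± 637 normalized counts per kilobase in the 13 FF sows, as mean ± SD, and 1680 ± 579 in the 14 RES sows. COL1A2, the second chain of type I collagen (chr9:74174484-74210407, plus strand), had 1663 ± 685 and 1577 ± 681. The levels of these chains differed by less than their SDs. COL1A1, the first chain of the same protein (chr12:26379087-26397180, minus strand), was listed far lower, at 262 ± 197 and 245 ± 158 per kilobase. COL14A1 (chr4:18690197-18925111, minus strand), which binds to the surface of collagen fibrils and is used as a thecal marker, had 108 ± 34.6 and 93.9 ± 39.4. Its model overlaps a pseudogene, and the counting set no strand option, so reads where the models overlap may not be counted for the right gene or at all. The same holds for CYP17A1 (chr14:113805616-113820445, minus strand), whose model overlaps the protein-coding gene BORCS7.

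Decorin (DCN, chr5:91678601-91713925, plus strand) and lumican (LUM, chr5:91748871-91756381, plus strand), neighbouring genes whose proteins bind collagen fibrils and limit their width, had 1104 ± 407 and 590 ± 425 counts per kilobase in FF and 1002 ± 329 and 499 ± 297 in RES. Biglycan (BGN, chrX:124282048-124295450, plus strand), a close relative of DCN, was far lower with 28.3 ± 18.4 and 26.2 ± 8.22. PDGFRA (chr8:40966568-41021440, plus strand), the receptor of fibroblasts for platelet-derived growth factors, had 78.9 ± 22.0 and 59.5 ± 27.5. PDGFRB (chr2:151155753-151192818, minus strand), a receptor for the same family of ligands that is used as a pericyte marker, was the lowest, at 7.03 ± 3.14 and 4.71 ± 1.47. It was counted 19 to 73 times per library, whereas COL3A1 was counted 5390 to 14710 times. ACTA2 (chr14:100868145-100886732, minus strand), a contractile actin of smooth muscle and pericytes, had 1095 ± 765 and 1117 ± 669, a level close to that of DCN. The order over all libraries was COL3A1, COL1A2, ACTA2, DCN, LUM, COL1A1, COL14A1, PDGFRA, BGN and PDGFRB. The ranges of mean ± SD of neighbours in this order overlapped in FF except for PDGFRA and BGN, and in RES except for BGN and PDGFRB. ACTA2 shares most of its coding sequence with other actins, so its counts rest on the uniquely mapped part of its reads and are uncertain.

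The spread between sows differed from gene to gene. Over the 27 libraries LUM varied 12.1-fold from its lowest to its highest value, COL1A1 9.18-fold and ACTA2 8.72-fold, while COL3A1 varied 3.36-fold and DCN 3.35-fold. CYP17A1 varied 21.1-fold. The highest values did not come from the same library for all genes. FF sow 10 was highest in FF for COL1A1, COL3A1, BGN and PDGFRB, FF sow 11 for COL1A2, COL14A1 and ACTA2, and FF sow 13 for DCN and LUM. In RES, sow 7 was highest for COL1A1, COL1A2, COL3A1, PDGFRA, PDGFRB, ACTA2 and CYP17A1.

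**Figure D1:**
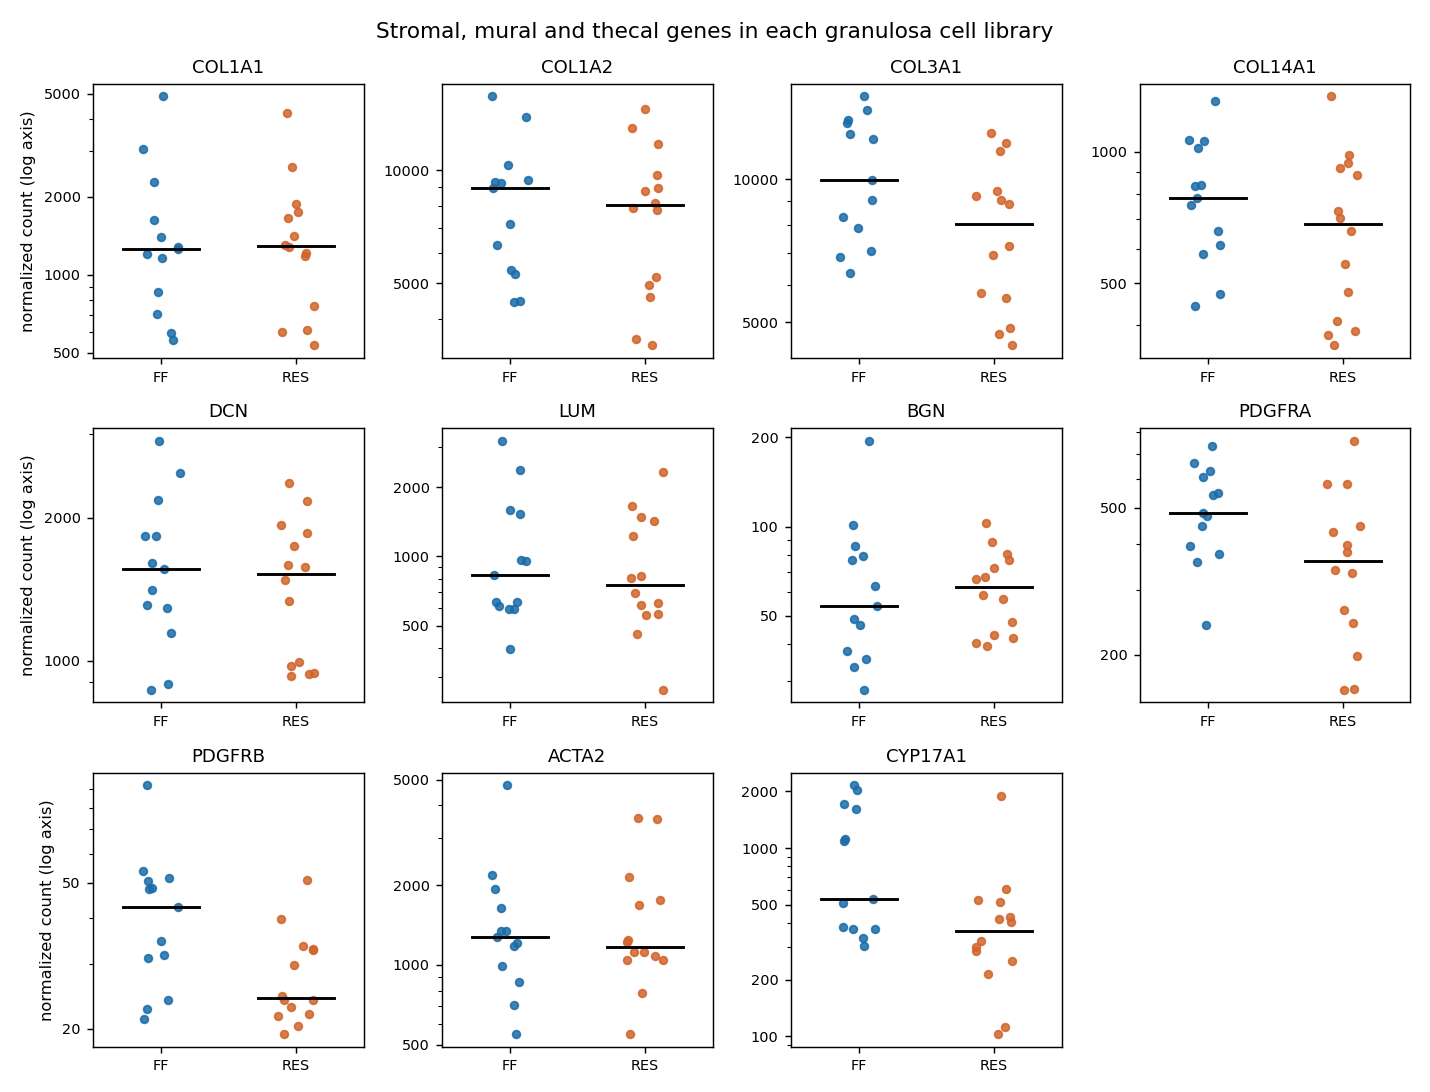
Normalized counts (log axis) of the 10 wall markers and CYP17A1 in each FF and RES library, 1 point per sow, with the group median as a bar. FF and RES points overlap for every gene, and PDGFRB is the gene with 13 of 14 RES sows below the FF median.

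Between the diets, PDGFRB was lower in RES than in FF, and no other wall marker passed the test. PDGFRB had a lowest value of 21.2, a median of 43.0 and a highest value of 92.4 normalized counts in FF, and 19.3, 24.2 and 50.9 in RES. Thus 13 of 14 RES sows lay below the FF median, and the ranges overlapped. Its log2 fold change was -0.61 (SE 0.20, edgeR adjusted p = 0.0402). The other 9 markers also had estimates below 0, and the median of the 10 was -0.21. Of all genes tested, 14.1% were called, 5.85% with a lower and 8.29% with a higher level in RES, and 52.7% lay below 0, with a median of -0.015. Of the 1610 genes called, 58.6% were higher in RES, and this share was 69.6% with DESeq2 size factors. So 1 of 10 called is a share near the background.

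COL3A1 had 6357, 9954 and 14999 normalized counts as the lowest, median and highest values in FF and 4464, 8053 and 12536 in RES. Of the RES sows, 5 lay below the lowest FF sow. The log2 fold change was -0.42 (SE 0.18, edgeR adjusted p = 0.11). PDGFRA had 240.6, 482.5 and 736.4 in FF and 160.8, 358.6 and 759.8 in RES, with 11 of 14 RES sows below the FF median. Its log2 fold change was -0.44 (SE 0.21, edgeR adjusted p = 0.157). Both genes thus had an unadjusted p under the threshold, 0.0255 for COL3A1 and 0.0456 for PDGFRA, and did not pass after adjustment over all genes.

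For the remaining collagens, proteoglycans and the actin, the estimates lay within 2 standard errors of 0. The log2 fold changes were -0.15 for COL1A1 (SE 0.33), -0.12 for COL1A2 (SE 0.23), -0.24 for COL14A1 (SE 0.20), -0.18 for DCN (SE 0.18), -0.27 for LUM (SE 0.32) and -0.16 for BGN (SE 0.24). For ACTA2 it was -0.0094 (SE 0.29), so that 2 standard errors reached from -0.59 to 0.57, and its sign turned with DESeq2 size factors.

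CYP17A1 itself had 301.8, 536.3 and 2160 normalized counts in FF and 102.4, 362.8 and 1895 in RES. All RES sows other than sow 7 lay at or below 603.9, and 6 lay below the lowest FF sow. Its log2 fold change of -1.11 (SE 0.39, edgeR adjusted p = 0.0523) missed the threshold with all libraries and passed it without RES sow 7 (-1.53, edgeR adjusted p = 0.00195). It also passed without FF sow 3, 4, 7, 8, 13 or 14 (adjusted p from 0.0413 to 0.0484), with DESeq2 (0.0389), upper-quartile factors (0.0495), edgeR's own count filter (0.0498), and read quality (0.0327, or 0.0328 without FF sow 10) or library GC (0.0386) as a covariate. Without RES sow 7, COL3A1 (-0.49, adjusted p = 0.046) and PDGFRA (-0.56, adjusted p = 0.0408) also passed, and 2350 genes were called in place of 1610. PDGFRB did not pass when FF sow 1, 2, 5, 6, 10, 11 or 12 or RES sow 1, 2, 3, 6, 9, 11, 12 or 13 was left out, with adjusted p from 0.0112 to 0.0707 over all 27 such fits. With CYP17A1 in the model, its estimate was -0.26 (edgeR adjusted p = 0.431).

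**Figure D2:**
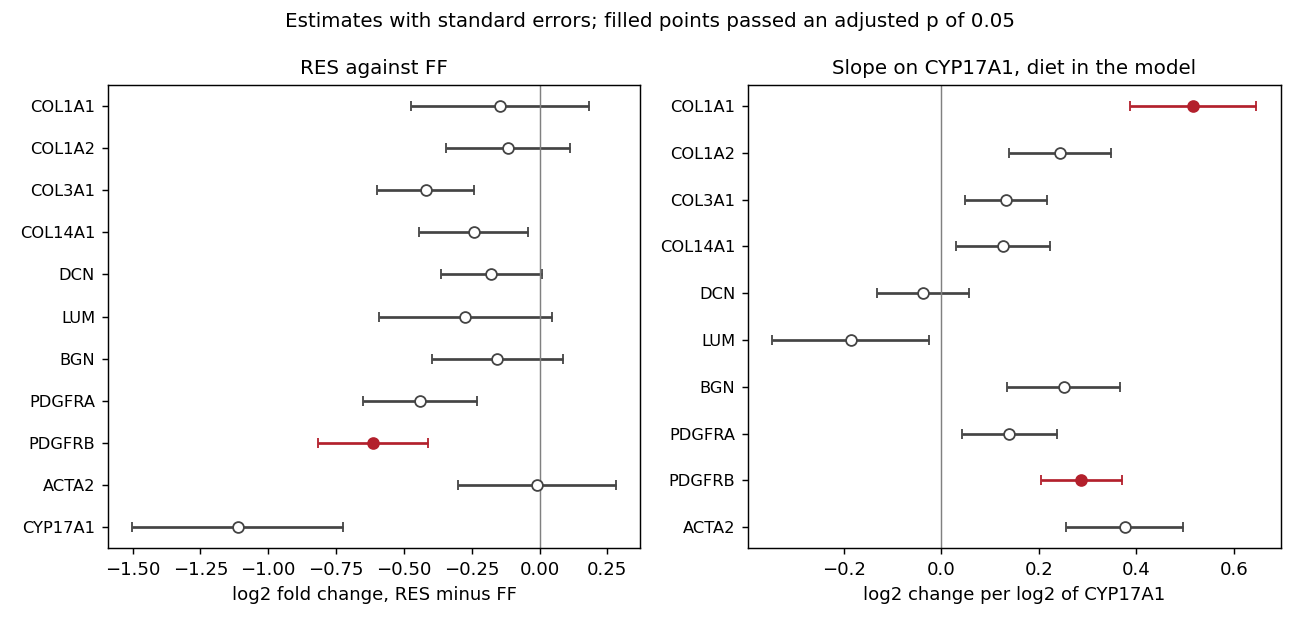
Left, log2 fold change of RES against FF for the wall markers and CYP17A1, and right, the log2 change per log2 unit of CYP17A1 with diet in the model, each as an estimate with its standard error. Filled points passed an adjusted p of 0.05, which were PDGFRB on the left and COL1A1 and PDGFRB on the right.

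The wall markers differed in how they followed CYP17A1 from sow to sow. COL1A1 and PDGFRB rose with it, DCN and LUM had estimates below 0, and the other 6 had estimates above 0 that did not pass. With diet in the model, COL1A1 changed by 0.52 on the log2 scale per log2 unit of CYP17A1 (SE 0.13, edgeR adjusted p = 0.0201) and PDGFRB by 0.29 (SE 0.083, adjusted p = 0.0417). ACTA2 had a slope of 0.38 (SE 0.12, adjusted p = 0.0623), BGN of 0.25 (SE 0.12) and COL1A2 of 0.24 (SE 0.10). PDGFRA, COL3A1 and COL14A1 had slopes of 0.14, 0.13 and 0.13, within 2 standard errors of 0. For DCN the slope was -0.037 (SE 0.094) and for LUM -0.19 (SE 0.16). In all, 8 of 10 slopes were above 0 and 2 passed, where 51.3% of all genes lay above 0, 4.86% passed and 2.56% passed with a positive slope. COL1A1 lost the call without RES sow 7 (adjusted p = 0.112) and with quality group in the model (0.46, adjusted p = 0.0704), but not with quality group and without FF sow 10 (0.43, adjusted p = 0.0385). PDGFRB lost it in 12 of the 27 fits that left out 1 library, and with quality group in the model with FF sow 10 (0.25, adjusted p = 0.13) and without it (0.24, adjusted p = 0.061). The number of genes called went from 281 without RES sow 4 to 705 without FF sow 10, against 553. No gene had a slope that differed between the diets (edgeR interaction, 0 called, 488 with an unadjusted p under 0.05). For COL1A1 the slope in RES minus that in FF was 0.19 (SE 0.27) and for PDGFRB -0.23 (SE 0.17).

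As a correlation over the 27 sows with the diet means removed, PDGFRB had Pearson's r = 0.62 with CYP17A1 (permutation p = 0.00084, adjusted over all genes 0.036) and Spearman's rho = 0.62 (permutation p = 0.00174). COL1A1 had r = 0.55 (permutation p = 0.00369, adjusted 0.0736) and rho = 0.53. Of all genes, 3.32% passed this test, and of the 10 markers PDGFRB passed. The other values of r were 0.49 for ACTA2, 0.41 for COL1A2, 0.33 for BGN, 0.30 for COL14A1 and for COL3A1, 0.26 for PDGFRA, -0.049 for DCN and -0.19 for LUM. Without FF sows 2 and 12, the libraries farthest from the median of CYP17A1, r was 0.61 for PDGFRB, which then missed the threshold (adjusted 0.0569), and 0.74 for COL1A1, which passed (adjusted 0.0265), and 0.64 for BGN, which passed too (adjusted 0.0369). Without FF sow 10, r was 0.66 for PDGFRB (adjusted 0.0257) and 0.57 for COL1A1 (adjusted 0.0581). Within FF, r was 0.75 for PDGFRB and 0.36 for COL1A1, and within RES 0.44 and 0.76, and after adjustment no member passed within a diet.

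A limit of 1000 normalized counts of CYP17A1 split the libraries into 2 sets. The split was a choice. On the log scale, the gap from 112.4 (RES sow 4) to 215.5 (RES sow 14) was wider than the gap at this limit. CYP17A1 lay between 1085 and 2160 in 7 libraries, namely 6 of FF and RES sow 7, and at or below 603.9 in the other 20. PDGFRB was 48.1 to 92.4 in the 7 libraries and 19.3 to 43.0 in the 20, so these ranges did not overlap. In order of rising CYP17A1, the 7 libraries had PDGFRB of 92.4 (FF sow 10), 53.7 (FF sow 1), 50.5 (FF sow 5), 51.5 (FF sow 11), 50.9 (RES sow 7), 48.3 (FF sow 12) and 48.1 (FF sow 2). Thus r was -0.73 among the 7 (exact permutation p = 0.00139, not adjusted), -0.91 among these without FF sow 10 (6 libraries, exact permutation p = 0.00972), and 0.12 among the 20 (permutation p = 0.616). Among the 7 and the 6 the diet means were not removed, since 1 of these sows is RES. Of the 10 markers, PDGFRB had an unadjusted p under 0.05 among the 7, and PDGFRB and DCN (r = -0.81, exact permutation p = 0.0431) among the 6. The share of all genes with such a p was not counted in these sets, so the marker counts cannot be set against a background. Both sets span a narrower range of CYP17A1 than all libraries, which limits what a relation within them can show. COL1A1 had r = 0.51 among the 20 (permutation p = 0.0364, adjusted over all genes 0.373) and r = -0.39 among the 7 (exact permutation p = 0.368). BGN had r = 0.46 among the 20 (permutation p = 0.0488, adjusted 0.3998) and r = -0.73 among the 7 (exact permutation p = 0.0627). Among the 20, 1412 of all genes had an unadjusted permutation p under 0.05, and 0 passed after adjustment. COL1A1 values overlapped between the sets, with 534.1 to 2614 in the 20 and 595.7 to 4904 in the 7. This limit of 1000 normalized counts was set after the values were seen. In the fit of the slope on the 20 libraries alone, edgeR called 0 genes, with 1619 at an unadjusted p under 0.05. COL1A1 had a slope of 0.46 (SE 0.20, adjusted p = 0.314) and PDGFRB of 0.025 (SE 0.14, adjusted p = 0.957), and 0.29, the slope over all libraries, lies within 2 standard errors of the latter.

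**Figure D3:**
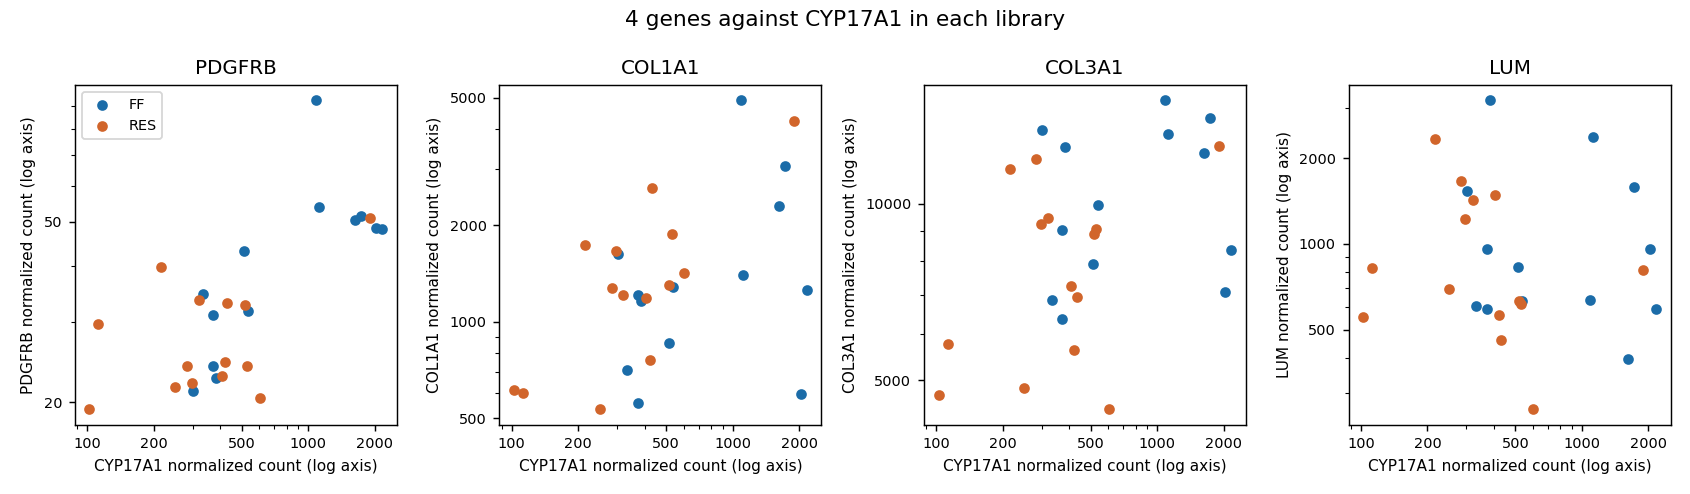
Normalized counts of PDGFRB, COL1A1, COL3A1 and LUM against those of CYP17A1 (both on log axes), 1 point per FF or RES library. The 7 libraries with CYP17A1 of at least 1085 all have PDGFRB of at least 48.1, and LUM, with r = -0.19 (permutation p = 0.353), has high values at low and at high CYP17A1.

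Among themselves, most wall markers varied together between sows. Of the 45 pairs, 43 had r above 0 with the diet means removed, the median r was 0.61, and 15 passed after adjustment over all genes with either gene as the reference (permutation test). Genes passing with a given reference were 0.738% of all for COL1A2 and for COL3A1, 3.21% for COL1A1, 0.764% for COL14A1, 0.826% for PDGFRA, 0.703% for ACTA2, 0.685% for PDGFRB, 12.3% for BGN, 0.0615% for DCN and 0% for LUM. The highest r was 0.90 for COL1A2 with COL3A1. It was followed by COL14A1 with PDGFRA and COL1A2 with ACTA2 (both 0.87), and by COL1A1 with COL1A2 and COL3A1 with PDGFRA (both 0.85). For each of these 5 pairs the permutation p was 1e-05, the smallest that the permutations can give, and r within FF and within RES was between 0.77 and 0.92. In the RES sows, for example, COL14A1 and PDGFRA had r = 0.92.

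The collagens COL1A1, COL1A2, COL3A1 and COL14A1 with PDGFRA and ACTA2 held 14 of the 15 called pairs, as a description of a set named after its values were seen. The last called pair was COL1A1 with BGN (r = 0.79). DCN and LUM had r = 0.74 (permutation p = 4e-05, larger adjusted p = 0.0683) and did not pass. DCN was also close to COL3A1 (0.71) and PDGFRA (0.70), and LUM had r = 0.65 with COL14A1, 0.57 with COL3A1 and 0.53 with PDGFRA, but 0.053 with COL1A1, -0.067 with BGN and -0.062 with PDGFRB. PDGFRB had its highest r with BGN (0.61, larger adjusted p = 0.0776) and passed with no member. Its r with PDGFRA was -0.039 in FF and 0.73 in RES. The difference between the diets in this pair was not tested.

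**Figure D4:**
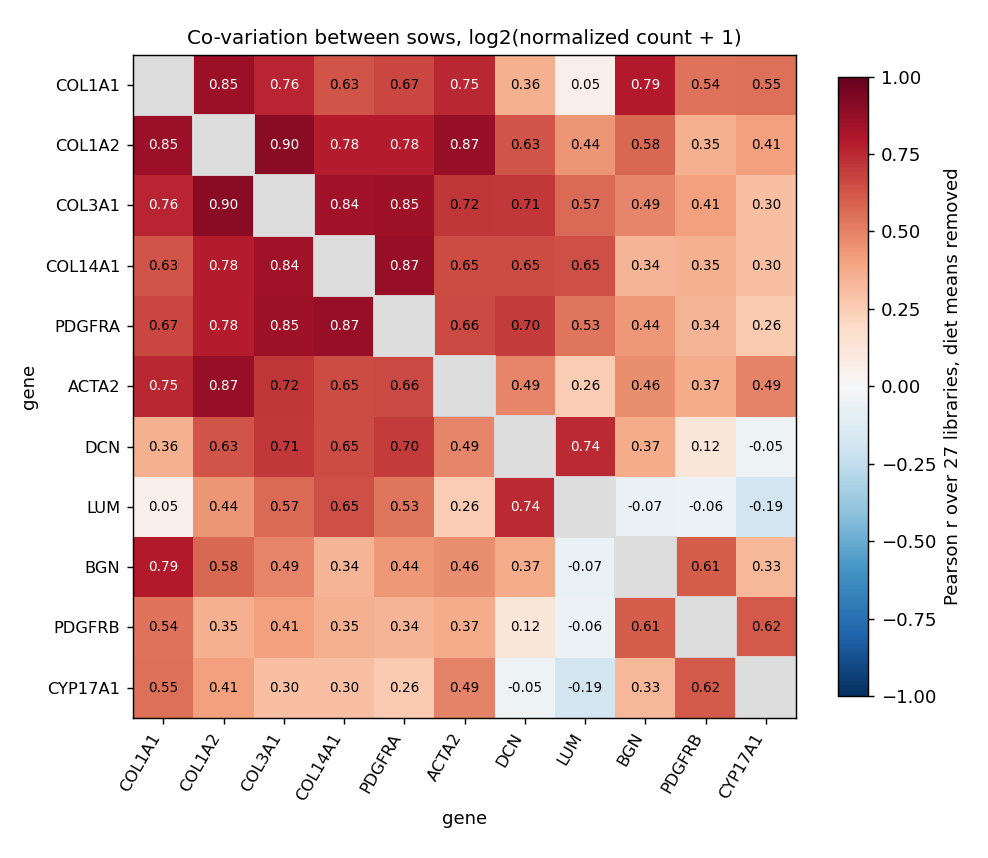
Pearson's r over 27 libraries for each pair of the 10 wall markers and CYP17A1, on log2(normalized count + 1) with the diet means removed. The block of COL1A1, COL1A2, COL3A1, COL14A1, PDGFRA and ACTA2 holds values of 0.63 to 0.90, while CYP17A1 reaches 0.62 with PDGFRB and -0.19 with LUM.

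Against the mean z-score of the 10 markers over the 27 libraries, r was highest for COL5A2 (0.92), a type V collagen chain that lies inside type I fibrils, followed by FBN1 (0.89), the fibrillin of elastic microfibrils, CDH11 (0.87), a cadherin of mesenchymal cells, COL6A3 (0.85), a chain of type VI collagen, and FRZB (0.84), a secreted Wnt antagonist. CYP17A1 ranked 609 with r = 0.39 and the endothelial gene PECAM1 ranked 262 with r = 0.53. STAR, which brings cholesterol into mitochondria for steroid synthesis, ranked 1474 with r = 0.25, and the granulosa gene INHA ranked 4293 with r = 0.039. The genes most like CYP17A1 were STAR (r = 0.91), ACSF2, ABLIM1, RDH12 and LIPG (0.84 to 0.81). All r values here share the same libraries and size factors and are descriptions.

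COL1A1 and COL1A2 encode the chains that join in type I collagen, and their RNAs followed each other closely between sows. The promoters are shown because the pair moved together. They are the 300 bases from 250 before to 50 after the annotated RefSeq start in Sscrofa11.1, in the direction of the gene, with COL1A1 at chr12:26397131-26397430 (minus strand) and COL1A2 at chr9:74174234-74174533 (plus strand). Capitals mark the motifs TATAAA and CCAAT on either strand.
COL1A1: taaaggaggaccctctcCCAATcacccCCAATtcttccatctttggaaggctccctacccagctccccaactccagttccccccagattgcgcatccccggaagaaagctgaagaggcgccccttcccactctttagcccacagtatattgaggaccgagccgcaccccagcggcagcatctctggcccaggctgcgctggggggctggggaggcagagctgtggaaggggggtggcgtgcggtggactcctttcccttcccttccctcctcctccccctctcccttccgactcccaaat
COL1A2: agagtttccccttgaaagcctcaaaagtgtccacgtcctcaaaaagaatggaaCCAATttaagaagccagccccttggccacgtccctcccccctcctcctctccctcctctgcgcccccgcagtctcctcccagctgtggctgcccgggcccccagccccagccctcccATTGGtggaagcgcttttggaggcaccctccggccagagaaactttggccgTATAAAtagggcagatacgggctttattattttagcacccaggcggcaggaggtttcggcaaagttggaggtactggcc
COL1A2 had TATAAA beginning 29 bases before the start and CCAAT beginning 197 and, on the other strand, 80 bases before it. COL1A1 had CCAAT beginning 233 and 223 bases before its start. TATAAA was found in 10.9% and CCAAT in 35.4% of the 19514 promoters of protein-coding genes. GGGCGG, searched on both strands, was found in the promoters of COL14A1, BGN and PDGFRB and in 50.6% of all. The CArG box, bound by serum response factor, was searched only in the exact form of CC, a run of A or T, and GG. That form was in none of the 10 and in 1.53% of all. The ACTA2 window holds ccctatatgg and ccttgtttgg, which have another base within the run, and such near matches were not counted. PDGFRA had CCAAT, and COL3A1, DCN, LUM and ACTA2 had none of these exact motifs in the window. The motifs do not overlap one another, and a match is a description only.

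The ratio of COL1A1 to COL1A2 varied between sows. Per kilobase of exon it lay between 0.091 and 0.294 in FF (median 0.135) and between 0.09 and 0.242 in RES (median 0.127). The highest ratio was in FF sow 10, followed by RES sows 5, 7 and 3. The ratio moved with a measure here called library GC, the mean GC of the exons of the counted genes, weighted by their counts. It was 43.5% to 44.4% in FF and 43.2% to 44.8% in RES. This measure reflects which genes were counted, and the GC of the reads that the study lists was not used. Over the 27 sows the log2 ratio had r = 0.59 with this measure (permutation p = 0.00107) and rho = 0.52 (permutation p = 0.00758), and r = 0.47 without the 2 libraries farthest from the median, RES sows 2 and 3. Within FF, r was 0.52 (permutation p = 0.0634), and within RES 0.66 (permutation p = 0.00719). Among the 14 libraries of the upper read quality group it was 0.21 (permutation p = 0.494), and among the 13 of the lower group 0.78 (permutation p = 0.00077). Without FF sow 10 it was 0.88 in the lower group (permutation p = 0.00016), 0.50 in FF (permutation p = 0.0946) and 0.59 over all (permutation p = 0.00162). The measure was chosen after the values were seen.

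The wall markers span a wide range of base composition, and stretches of coding sequence show it. Each is in frame, within a single coding exon, and of the same length, chosen as the stretch whose GC is closest to that of all exons of the gene, from RefSeq on Sscrofa11.1, with G and C in capitals. They are printed for the genes with the highest and the lowest correlations with CYP17A1 and for the type I collagen pair. PDGFRB lies at chr2:151161854-151161958 (minus strand), COL1A1 at chr12:26380571-26380675 (minus strand), COL1A2 at chr9:74206973-74207077 (plus strand), DCN at chr5:91682658-91682762 (plus strand) and LUM at chr5:91751713-91751817 (plus strand).
PDGFRB: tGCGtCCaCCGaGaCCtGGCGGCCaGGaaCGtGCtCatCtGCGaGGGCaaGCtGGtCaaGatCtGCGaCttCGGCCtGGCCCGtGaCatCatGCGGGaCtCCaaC
COL1A1: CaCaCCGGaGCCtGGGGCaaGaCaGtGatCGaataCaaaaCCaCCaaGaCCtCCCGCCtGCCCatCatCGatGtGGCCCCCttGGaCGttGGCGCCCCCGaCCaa
COL1A2: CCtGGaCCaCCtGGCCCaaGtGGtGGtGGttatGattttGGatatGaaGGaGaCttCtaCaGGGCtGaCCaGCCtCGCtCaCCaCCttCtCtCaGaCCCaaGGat
DCN: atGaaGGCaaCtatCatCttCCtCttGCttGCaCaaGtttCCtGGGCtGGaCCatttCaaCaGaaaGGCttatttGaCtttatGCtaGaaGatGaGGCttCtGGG
LUM: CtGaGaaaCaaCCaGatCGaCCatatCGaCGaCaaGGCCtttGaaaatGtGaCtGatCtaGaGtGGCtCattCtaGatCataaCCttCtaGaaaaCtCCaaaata
These stretches hold 63.8%, 61.9%, 54.3%, 43.8% and 40.0% G and C. Over all exons the values were 64.4% for BGN, 63.9% for PDGFRB, 62.3% for COL1A1, 55.5% for COL3A1, 53.7% for COL1A2 and for ACTA2, 47.7% for COL14A1, 45.8% for PDGFRA, 43.6% for DCN and 40.1% for LUM. The genes with the lowest GC, LUM and DCN, were those with r below 0 with CYP17A1, and PDGFRB and COL1A1 had the highest r. BGN, with the highest GC of the 10, had r = 0.33, below ACTA2 and COL1A2. Without FF sows 2 and 12 its r was 0.64, above 0.56 for ACTA2 and 0.57 for COL1A2.

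Over 10532 genes with a RefSeq exon model, or 92.5% of those tested, exon GC and r with CYP17A1 had a correlation of 0.40 across genes, which are not independent replicates. CYP17A1 itself has 53.3% GC, above the median of 49.8%. Its own r with library GC was 0.30 (permutation p = 0.135). Of the wall markers, BGN followed library GC (r = 0.62, permutation p = 0.00044, adjusted over all genes 0.0108), against 16.2% of all genes, and COL1A1 had r = 0.41 (adjusted 0.13). With library GC in the model, COL1A1 had a slope on CYP17A1 of 0.43 (edgeR adjusted p = 0.0732) and PDGFRB of 0.27 (adjusted p = 0.0744), so neither passed. RES against FF, PDGFRB then had -0.61 (edgeR adjusted p = 0.0342). What part base composition had in the remaining relations was not tested.

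**Figure D5:**
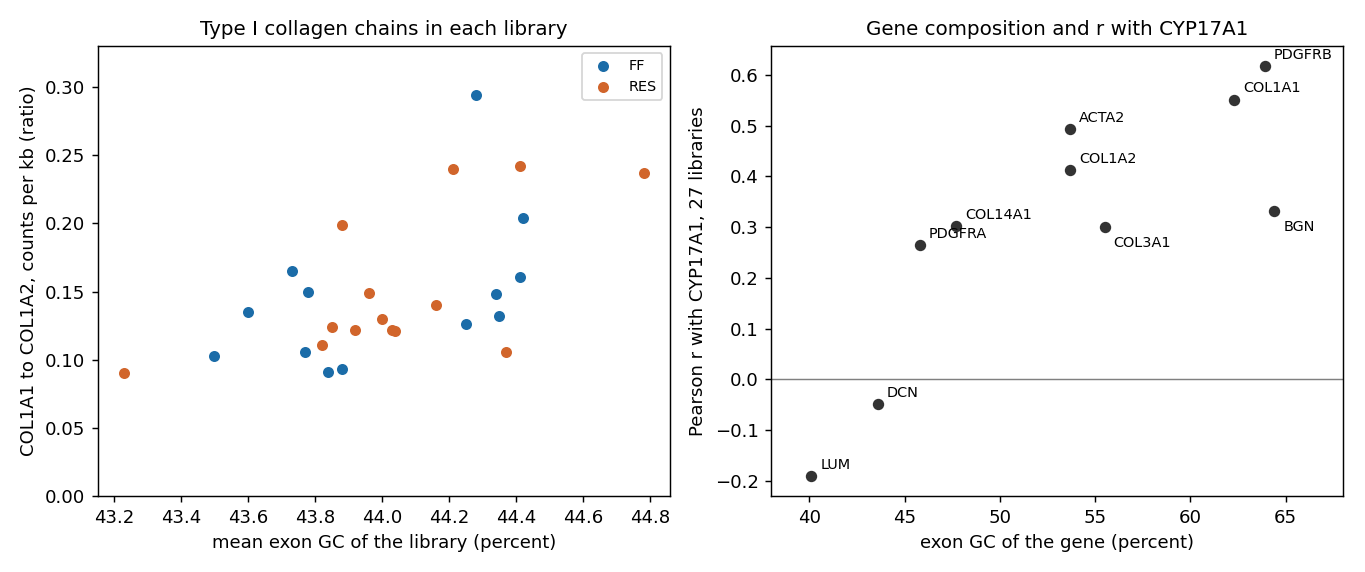
Left, ratio of COL1A1 to COL1A2 (counts per kilobase) against the mean exon GC of each FF and RES library, and right, Pearson's r of each wall marker with CYP17A1 against the exon GC of the gene. FF sow 10 has the highest ratio, 0.294, and LUM and DCN, with 40.1% and 43.6% GC, are the genes below 0 on the right.

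Further genes of the same roles were counted against 14.1% of all genes called for diet, 5.85% lower and 8.29% higher. Of 13 tested collagen chains of types V, VI, VIII, XI, XII, XVI and XXVII, 0 were called for RES against FF (edgeR) and 10 had estimates below 0, with a median of -0.18. COL12A1, the most abundant of them, had a log2 fold change of -0.016 and COL5A2 of -0.14. COL8A2 was at 0 in all libraries. Among 17 enzymes and chaperones of collagen maturation, P4HA2, a subunit of prolyl hydroxylase, rose in RES (log2 fold change 0.59, SE 0.16, edgeR adjusted p = 0.0155), and none fell. PLOD2 and P4HA1, hydroxylases of lysine and proline and the most abundant of these, had log2 fold changes of 0.19 and -0.11. Of 7 further small leucine-rich proteoglycans and 18 fibroblast genes, none was called, with -0.14 for OGN and -0.29 for ECM2, the most abundant of these proteoglycans. With CYP17A1, 1 collagen chain, 1 enzyme, 1 proteoglycan and 2 fibroblast genes had a positive slope that passed, against 2.56% of all genes, and vimentin (VIM) a negative one (-0.25, edgeR adjusted p = 0.0116).

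Among genes of contractile cells and pericytes, 3 were lower in RES, where 5.85% of all genes were. Of 13 smooth muscle genes, 1 fell in RES, CALD1, an actin-binding protein, at the edge of the threshold (log2 fold change -0.64, edgeR adjusted p = 0.0499), while TPM1, a tropomyosin and the most abundant of them, had 0.083. With CYP17A1, 12 of the 13 had a slope above 0 and 5 passed with a positive slope, against 2.56% of all genes. Of 8 pericyte genes, 2 fell, namely RGS5, a regulator of G-protein signalling typical of pericytes, from 2282 ± 840 to 1367 ± 584 normalized counts (log2 fold change -0.77, edgeR adjusted p = 0.0131), and ANGPT1, a ligand of the endothelial receptor TEK (log2 fold change -0.89, adjusted p = 0.0346). ANGPT1 is not restricted to pericytes, the study used it as a marker of follicular development, and its level of 1915 ± 966 in FF was far above that of PDGFRB. In all, 5 of the 8 had estimates below 0, and the highest was 0.65. HIGD1B, NDUFA4L2 and ANPEP were under the count minimum. The pericyte genes summed to 2520 to 8322 in FF and 1805 to 5559 in RES. Of the 4 PDGF ligands and the receptor-like PDGFRL, none was called for diet. PDGFC, a ligand of PDGFRA, fell with rising CYP17A1 (slope -0.25, edgeR adjusted p = 0.0353), and PDGFB, a ligand of PDGFRB, rose (slope 0.45, edgeR adjusted p = 0.0289), where 4.86% of all genes passed. PDGFD, the most abundant of the 5, had a slope of -0.13 (edgeR adjusted p = 0.243).

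Of 11 endothelial genes, 5 fell in RES and 0 rose, where 5.85% of all genes were lower and 8.29% higher. Among the 5 were EMCN, a sialomucin of capillaries (log2 fold change -0.78, edgeR adjusted p = 0.00283), CLDN5, a tight junction protein (-0.80, adjusted p = 0.00797), and CDH5, the endothelial cadherin (-0.56, adjusted p = 0.0113). EGFL7 and PLVAP were under the count minimum. The endothelial genes summed to 1320 to 2559 in FF and 898.1 to 2574 in RES. With CYP17A1, 4 of the 11 had a positive slope that passed, against 2.56% of all genes, KDR, a receptor of vascular endothelial growth factor, among them (0.32, edgeR adjusted p = 0.000528). Haemoglobin beta (HBB) fell in RES (log2 fold change -1.89, adjusted p = 0.0171), while ALAS2, an enzyme of haem synthesis in red cells, had -0.84 (adjusted p = 0.27). Of 7 immune genes 0 were called, all with estimates below 0, such as LAPTM5 with -0.40 and PTPRC with -0.22. Of 7 genes of thecal steroid synthesis, CYP11A1 fell (-1.28, edgeR adjusted p = 0.0092), STAR had -0.90 (adjusted p = 0.244), and 4 of 6 rose with CYP17A1. These genes summed to 8216 to 41585 in FF and 2497 to 35040 in RES, of which LHCGR, the luteinizing hormone receptor that GCs of large follicles also carry, made up the most, with 15394 ± 6943 and 9420 ± 6579. So this sum does not stand for thecal cells alone. Of 5 hedgehog receptors and targets used as thecal markers, PTCH1 and HHIP among them, 0 were called for diet and 0 for the slope, 2 slopes lay above 0, and the median r with CYP17A1 was -0.20. Of 9 granulosa genes none was called for diet, while 2 had a positive and 1 a negative slope on CYP17A1 that passed. INHBA, an inhibin and activin subunit, had a slope of 0.35 (edgeR adjusted p = 0.00515) and r = 0.69, a value above that of each wall marker. Of the oocyte genes, GDF9, a growth factor of the oocyte, had 229 ± 53.9 in FF and 210 ± 43.9 in RES, and DDX4, a germ cell helicase, had means of 7.09 and 5.05. Neither was called (log2 fold changes of -0.17 and -0.54), and the zona pellucida genes ZP2, ZP3 and ZP4 with BMP15, OOEP and NLRP5 were under the count minimum. The 2 tested summed to 169.6 to 365.8 in FF and 151.7 to 332.0 in RES. The part of vessel and blood cells in the difference of PDGFRB was not tested.

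The libraries fall into an upper and a lower group by read quality, each with sows of both diets. In the 14 libraries of the upper quality group, PDGFRB had a log2 fold change of -0.56 (edgeR adjusted p = 0.0797), and in the 13 of the lower group -0.69 (adjusted p = 0.391), or -0.41 without FF sow 10 (adjusted p = 0.626). Of all genes, 17.8% were called in the upper group and 0.00878% in the lower, and 0 of the 10 markers in either. The upper group's value minus the lower group's, tested as an interaction over all 27 libraries, was 0.12 (SE 0.39, edgeR adjusted p = 0.926), and without FF sow 10 it was -0.16 (SE 0.35, adjusted p = 0.943). With RNA integrity in the model, PDGFRB had -0.54 for RES against FF (edgeR adjusted p = 0.0686), and -0.46 without FF sow 10 (adjusted p = 0.0753). No gene had an interaction of diet and quality group that passed (edgeR, 0 called, 1398 with an unadjusted p under 0.05).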

How the data were processed

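Mural GCs of 13 FF and 14 RES sows were profiled with 1 library per sow. The authors aligned the reads to Sscrofa11.1 with HISAT2 2.2.1, removed PCR copies with UMI-tools 1.1.4 and deposited counts of uniquely mapped reads per Ensembl gene from featureCounts 1.6.2, per the labels and methods. No strand option was set, so counts of overlapping genes are uncertain. Identifiers with a symbol and a mean count of at least 5 were kept (11384 genes). RES and FF were compared with edgeR 4.0.16 (quasi-likelihood, TMM, Benjamini-Hochberg adjustment over all genes, threshold 0.05), the slope on log2 CYP17A1 with diet in the same model. The study used DESeq2, here an alternative (1.42.0). Normalized counts are counts divided by DESeq2 size factors. Correlations used log2(normalized count + 1) with diet means removed and 100000 two-sided permutations within diets, or 20000 for marker pairs under other settings. Genes named were the 10 markers and CYP17A1, in each list the 2 most abundant genes and up to 3 called genes of lowest p, and the 5 genes nearest to the markers and to CYP17A1. INHA, PECAM1, PDGFB and others were named after their values were seen. The markers and lists were chosen with earlier results of these data known. RNA integrity and read quality values from the study served as covariates only. Other scalings, filters, covariates and leaving out each library were tried. The scripts were tested on simulated data. There, 5.95% of the calls for RES against FF and 10.9% of those for the slope on CYP17A1 were false at the threshold of 0.05. Slope calls near the threshold are thus less certain than their adjusted p states. Intervals and p-values measure the spread between sows.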

Additional observations from a re-analysis of the deposited data

How the results depend on the processing

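With no count filter, with all identifiers, with RNA integrity or CYP17A1 as a covariate, and within the upper or the lower quality group, 0 wall markers were called for RES against FF. With CYP17A1 as a covariate 754 genes were called, and in the lower quality group 1. The replicate numbers do not pair the sows (13 same-numbered pairs, r of -0.22 to 0.30, median 0.011). With a replicate block, 0 markers and 1084 genes were called for diet, and 0 markers and 5 genes for the slope. The slope on CYP17A1 was called for 0 markers with quality group or library GC as a covariate, in the libraries with CYP17A1 under 1000 and in FF alone, and for 1 in RES alone. For the correlation with CYP17A1, 0 markers passed on values not logged, on residuals within quality groups, in FF alone, in RES alone, with library GC removed and with CYP17A1 under 1000, and 2 without the 2 libraries farthest from its median. Of the marker pairs, 0 passed in FF alone and 3 in RES alone. These counts used 20000 permutations, with which all 27 libraries gave 14 pairs in place of 15. Fewer permutations raise the smallest p that can be reached, and fewer libraries lower the power, so the 0 does not show a lack of relation. Leaving out 1 library gave 1182 to 2350 genes and 0 to 3 markers for diet and 281 to 705 genes and 0 to 3 markers for the slope. COL1A1 lost its slope without RES sow 7 (0.45, edgeR adjusted p = 0.112). PDGFRB lost its slope without FF sow 1, 2, 3, 4, 5, 11, 12, 13 or 14 or RES sow 1, 7 or 11 (adjusted p from 0.0216 to 0.135 over all fits).

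Signs turned as follows. The log2 fold change of COL1A1 was 0.012 with RNA integrity, 0.33 with CYP17A1 as a covariate and 0.027 in the lower quality group. COL1A2 had 0.12 with CYP17A1 and 0.063 in the lower quality group, and BGN 0.13 with CYP17A1. ACTA2 had 0.028 with DESeq2 size factors, 0.0044 with no count filter, 0.026 with all identifiers, 0.43 with CYP17A1, 0.035 with library GC and 0.21 in the lower quality group. Without FF sow 10, COL1A1 had 0.034 with quality group, 0.14 with RNA integrity and 0.64 in the lower quality group, COL1A2 0.26 in the lower group, BGN 0.057, 0.093 and 0.26 in these 3 settings, and ACTA2 0.060, 0.060 and 0.40. There, 0 markers were called with RNA integrity, 0 in the lower group (0 genes with edgeR, 1325 at an unadjusted p under 0.05), and for the slope 1 (COL1A1) and 348 genes with quality group. With the replicate block, slopes were 0.19 for DCN and 0.081 for LUM. With CYP17A1 under 1000 they were -0.0049 for COL14A1 and -0.0078 for PDGFRA, and PDGFRA had -0.0011 in FF alone. DCN had r = 0.11 without the 2 farthest libraries. Leaving out 1 library, log2 fold changes ranged from -0.17 to 0.27 for ACTA2, -0.23 to 0.096 for BGN and -0.37 to 0.14 for COL1A1, and the slope of DCN from -0.081 to 0.0098. The causes were not tested. Library GC, the limit of 1000 and these settings without FF sow 10 were chosen after seeing the data. PDGFRB and BGN rest on few counts, 19 to 73 and 25 to 154 per library, which limits their precision.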
